A study of Mus musculus with 6 samples.

Results

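The mouse mitochondrial genome encodes 37 genes in the GENCODE M21 annotation, and the transcripts described here are those of its protein genes. Members were taken as all rows of the deposited table whose symbol starts with mt-. There were 13 such rows of 31273 in all, each of them a protein-coding gene, and 0 rows for mitochondrial rRNA or tRNA. The study sequenced 6 libraries of poly(A)-selected RNA from the left ventricle and reported TPM, which divide a gene's reads by its length and then by a library-wide sum, so that all libraries have the same total. By genotype label, 3 libraries were control and 3 had RBM20 overexpression in cardiomyocytes. RBM20 is a splicing regulator of the heart, and the study's design text describes a tamoxifen-inducible knock-in of it, used to study dilated cardiomyopathy. The labels name no strain, age, sex, tamoxifen schedule or promoter for Cre, and do not say whether controls carried Cre. Nor do the labels say that libraries come from separate animals beyond numbers in their titles. The p-values thus measure the spread between these libraries, which may be technical in part.

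Mitochondrial DNA is transcribed from both strands into long precursors. Most genes lie on the same strand, with tRNAs between them. Excision of the tRNAs releases the rRNAs and mRNAs, most of which then receive poly(A) tails. The mRNAs encode core subunits of respiratory complexes I, III, IV and V, while all subunits of complex II and most subunits of the other complexes come from the nucleus. Heart muscle is dense in mitochondria, and these RNAs make up a large part of its polyadenylated RNA.

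The libraries followed their genotype labels at the targeted gene. Rbm20 stood at 74.9, 90.9 and 79.5 TPM in control and at 321, 913 and 907 TPM in overexpression libraries 1 to 3. Esr1, the estrogen receptor gene, part of which is built into tamoxifen-dependent Cre recombinases, stood between 0.234 and 0.415 TPM in control and between 53.0 and 218 TPM in overexpression libraries. RBM20 and any other difference between the groups, Cre and tamoxifen among them, cannot be told apart. Overexpression library 1 stood apart at sex-linked genes, with the Y-linked Ddx3y at 88.1 TPM against 0 in every other library. Xist stood at 0.0172 TPM in overexpression library 1 and between 34.4 and 62.6 TPM in the others. By these genes the overexpression group mixes sexes and the control group does not. Results without overexpression library 1 are given below for the mt- share, the count of mt- calls, some mt- genes and the count over the nuclear lists. They are not given for the cell type markers. Titles contain cki for control and cre for overexpression libraries, against the design text's name for its knock-in mice. Groups here follow the genotype label, which the column names of the deposited table share.

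The place of each gene in the mitochondrial genome (build GRCm38) bears on how its reads can be counted. From mt-Nd1 at chrM:2751-3707 to mt-Cytb at chrM:14145-15288, the genes follow each other on the plus strand, except mt-Nd6 (chrM:13552-14070) on the minus strand. The last 43 bases of mt-Atp8, 21.1% of its length, are also the first 43 bases of mt-Atp6 (chrM:7927-7969). Reads that cover any of that stretch overlap both genes, and the labels do not say how they were counted. The stretch is in capitals in the GENCODE M21 sequences below, shown because the smallest read number of any member and library was one of mt-Atp8.
mt-Atp8, last 80 bases: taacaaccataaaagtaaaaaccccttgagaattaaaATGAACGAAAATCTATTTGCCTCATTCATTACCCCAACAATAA
mt-Atp6, first 80 bases: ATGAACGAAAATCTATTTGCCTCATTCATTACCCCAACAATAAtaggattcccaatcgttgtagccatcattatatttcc

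mt-Nd5 and mt-Nd6 end in each other on opposite strands, over 14 bases (chrM:13552-13565). In the pair below the shared bases are in capitals, each gene read 5′ to 3′ on its own strand. The labels describe strand-specific libraries but not the strand setting of the counting, so RNA of mt-Nd6 and RNA antisense to it cannot be told apart in these values.
mt-Nd5, last 40 bases: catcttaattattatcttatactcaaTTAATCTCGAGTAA
mt-Nd6, last 40 bases: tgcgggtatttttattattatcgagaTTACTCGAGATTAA

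Poly(A) tails also complete the reading frame of some of these mRNAs. The annotated lengths of mt-Co3, mt-Nd4 and mt-Cytb leave 1 base after the last whole codon, a T in capitals below, and the tail supplies the rest of the stop codon. The other 10 members had lengths of whole codons. These ends are shown because the libraries were made from polyadenylated RNA.
mt-Co3, last 30 bases: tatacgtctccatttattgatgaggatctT
mt-Nd4, last 30 bases: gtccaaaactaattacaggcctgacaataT
mt-Cytb, last 30 bases: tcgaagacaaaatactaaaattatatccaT

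Near-identical nuclear copies exist for part of this genome. On chromosome 1 of GRCm38, 7 annotated pseudogenes lie in a row between 24611535 and 24616197 on the minus strand, in the same order as the mitochondrial genes from the end of mt-Co1 to the first part of mt-Nd4. The copies of mt-Co2, mt-Atp6, mt-Co3, mt-Nd4l and mt-Nd4 matched with 0 mismatches over 681, 678, 783, 294 and 876 bases. That of mt-Nd3, Gm28438, differed by 1 substitution in 345 bases (T3C, counted from the gene's 5′ end), in capitals below. That of mt-Co1, Gm29216, covered 483 of its 1545 bases with the substitution A1066T. None of the nuclear genes that matched a member is a row of the deposited table.
mt-Nd3, first bases: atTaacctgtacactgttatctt
Gm28438, first bases: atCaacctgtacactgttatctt

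Cut into windows of 150 bases, the read length in the labels, the members fell into 3 kinds. In mt-Co2, mt-Atp6, mt-Co3, mt-Nd3 and mt-Nd4l, between 97.0% and 99.8% of windows occurred unchanged in an annotated nuclear transcript. In mt-Nd4 and mt-Co1 it was 59.2% and 23.6%, and in mt-Nd1, mt-Nd2, mt-Nd5, mt-Nd6 and mt-Cytb 0%. mt-Atp8 had 0% as well, but no annotated pseudogene covers its place. It lies between mt-Co2 and mt-Atp6, whose starts are 914 bases apart in the mitochondrial genome and 914 bases apart in the chromosome 1 copies. In control libraries the genes with 97.0% or more of their windows copied averaged between 1269 and 9876 TPM, mt-Nd4 averaged 30336 TPM, and the genes with 0% other than mt-Atp8 averaged between 37053 and 84246 TPM. mt-Co1, with 23.6% of its windows copied, was the highest of all at 151047 TPM. The 5 genes copied almost whole were thus lower than all others except mt-Atp8, and the labels do not say how reads with both places were handled. Whether the copies lowered the values was not tested.

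**Figure D1:**
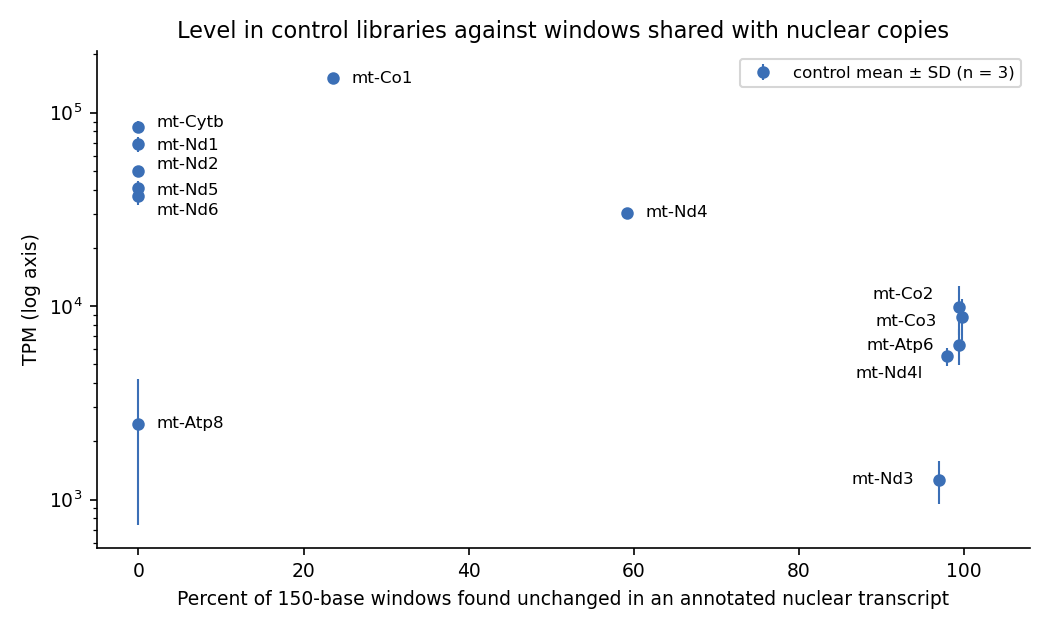
Mean TPM of each mitochondrially encoded gene in the 3 control libraries (log axis, bars are SD) against the percent of its 150-base windows found unchanged in an annotated nuclear transcript. The 5 genes at 97.0% or more lie at 9876 TPM or below, and mt-Atp8, with no annotated copy, lies at 2468 TPM.

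Low TPM values of these genes still rest on many reads. With the annotated gene lengths, all 78 mt- values were whole multiples of what 1 counted read was worth in their library, within 0.02 reads, against 4 of 78 when each length was taken 1 base longer. Counted reads on the 13 genes summed to 11855604, 16717992 and 10975767 in the control and 9217907, 7906823 and 16338773 in the overexpression libraries. The smallest number was 1661 reads, for mt-Atp8 in overexpression library 2, a counting error of 2.45%. Counting error covers reads, not independent molecules. It was far smaller than the spread between libraries of mt-Atp8 in either group (70.1% and 50.2% of the mean, SD).

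The summed mt- RNA took a smaller share of the transcripts in overexpression ventricles. It made up 48.26%, 48.84% and 51.97% of TPM in control libraries and 38.47%, 36.66% and 41.05% in overexpression libraries. All 3 overexpression libraries lay below all control libraries. The group means were 49.7% ± 1.99 and 38.7% ± 2.21 (SD, n = 3 each), a decrease of 22.1% of the control mean. By complex, subunit RNAs of complex I averaged 23.4% of all TPM in control and 18.7% in overexpression libraries. The averages were 16.97% and 12.55% for complex IV, 8.43% and 7.06% for mt-Cytb of complex III and 0.875% and 0.448% for complex V. In each of the 4 sums the groups lay apart, but the sums are parts of the same total. In complex V the groups overlapped in both mt-Atp8 and mt-Atp6 taken singly. Of genes that averaged 1 TPM or more, 10.4% lay apart with overexpression lower and 62.1% with overexpression higher. In bulk tissue, fewer cells of a type and less RNA per cell cannot be told apart.

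**Figure D2:**
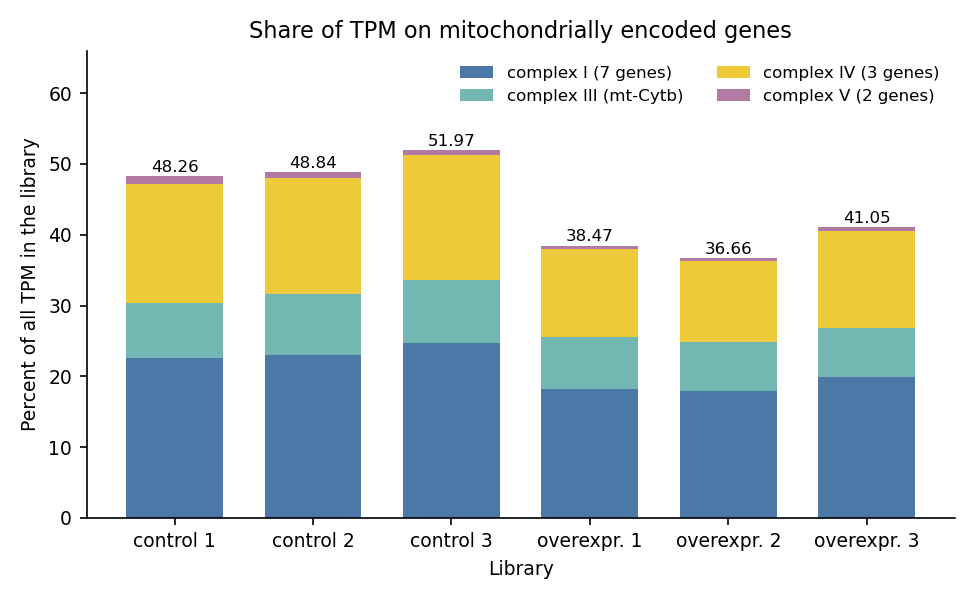
Percent of all TPM on mitochondrially encoded genes in each of the 6 libraries, split by the complex of the encoded subunit, with the total above each bar. Control bars end between 48.26% and 51.97% and overexpression bars between 36.66% and 41.05%.

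TPM have a fixed total, so a smaller mt- share leaves more of it to every other gene. Over the 12404 genes that averaged 1 TPM or more, the median log2(TPM + 1) difference, overexpression minus control, was 0.55. With TPM recomputed over genes outside mt- alone it was 0.33. Member by member, log2(TPM + 1) was tested with limma across all 12404 genes, with Benjamini-Hochberg adjusted p under 0.05 as the threshold. All 13 members had negative differences, with a median of -0.42. Called lower were 7 of the 13 and called higher 0, against 9.09% of all genes called lower and 59.0% called higher. At an unadjusted p under 0.05 there were 8. The 3 overexpression libraries lay below all control libraries in 7 of 13 members, and above them in 0 (10.4% and 62.1% of all genes). Without overexpression library 1, which differs at sex-linked genes, 5 members were called lower. Without overexpression library 2, 1 member (mt-Co3) was called. With no filter on low genes, 1 was called, again mt-Co3. Median-of-ratios scaling, which divides a library by the typical ratio of its genes to their cross-library average, brought the median of all genes to 0.01. On that scale 12 members were called lower and 0 higher (24.0% and 22.2% of all genes), with a median of -1.05.

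**Figure D3:**
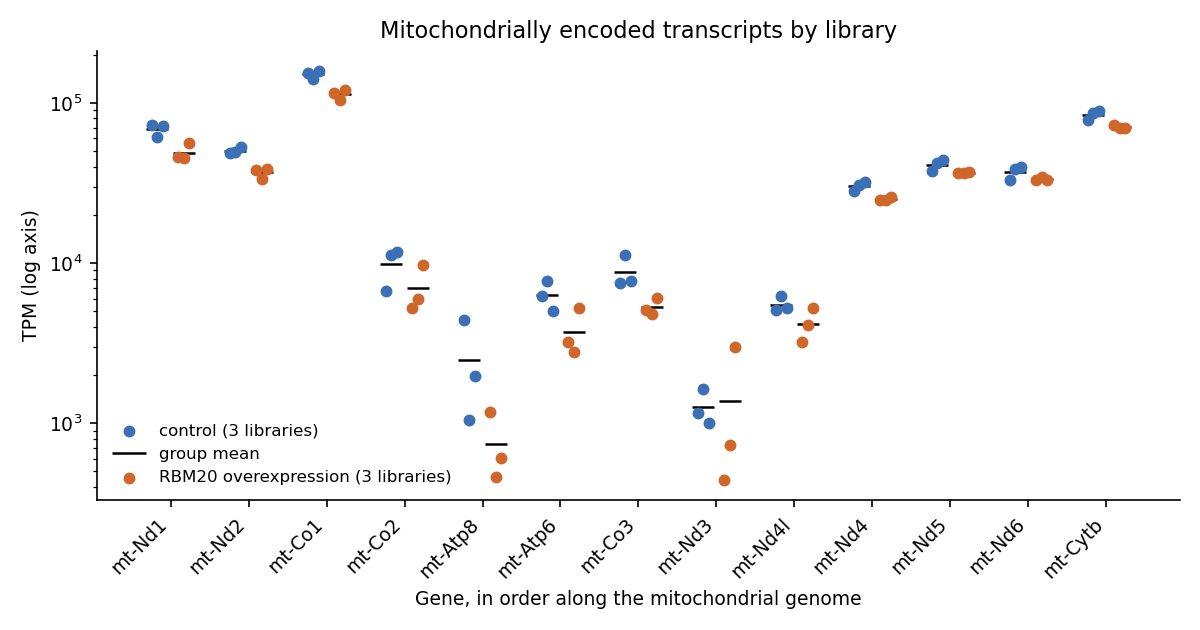
TPM of the 13 mitochondrially encoded genes in each library (log axis), in genome order, with points for libraries and bars for group means. Overexpression libraries lie below all control libraries for mt-Nd1, mt-Nd2, mt-Co1, mt-Co3, mt-Nd4, mt-Nd5 and mt-Cytb, and the groups overlap for the other 6.

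Complex I, the NADH dehydrogenase that feeds electrons from NADH into the chain, takes 7 subunits from this genome, all in its membrane arm. mt-Nd1, next to the site where quinone is reduced, stood at 72313, 61605 and 72113 TPM in the 3 controls, and 45855, 44925 and 56040 TPM under overexpression. The groups did not overlap, and overexpression library 3 came closest to control. It fell by 0.49 on the log2 scale (SE 0.134, limma adjusted p = 0.0108), a ratio of means of 0.713. mt-Nd2, an antiporter-like subunit, stood at 48710, 49102 and 52943 TPM against 38207, 33577 and 38840 TPM. It fell by 0.45 on the log2 scale (SE 0.112, limma adjusted p = 0.00697), in 3 of 3 overexpression libraries. The calls of mt-Nd1 and mt-Nd2 ended without overexpression library 2, at limma adjusted p of 0.0754 and 0.0589.

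The antiporter-like subunits mt-Nd4 and mt-Nd5 and the minus-strand gene mt-Nd6 differed less. mt-Nd4 stood at 28328, 30651 and 32028 TPM in control and at 24914, 24607 and 25998 TPM in overexpression libraries. Its log2 difference was -0.27 (SE 0.101, limma adjusted p = 0.042), and the call ended without control library 2 or 3 or overexpression library 1 or 2 (adjusted p = 0.0726 to 0.153). mt-Nd5 stood at 37290, 41913 and 43925 TPM in control libraries. In overexpression libraries it kept to a range of 1.01-fold, at 36370, 36494 and 36912 TPM. The groups lay apart, yet the difference of -0.16 was not called (SE 0.109, limma adjusted p = 0.21). mt-Nd6 overlapped, with 32922, 38528 and 39708 TPM against 33117, 34234 and 33074 TPM, and its difference of -0.14 was not called (adjusted p = 0.285).

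The short complex I members, mt-Nd3 and mt-Nd4l, lie in the stretch copied on chromosome 1, and neither was called in TPM. mt-Nd4l stood at 5083, 6204 and 5207 TPM in control and at 3200, 4101 and 5204 TPM in overexpression libraries, where library 3 reached control levels. The log2 difference was -0.42 (SE 0.171, limma adjusted p = 0.0539), and without overexpression library 3 it was -0.60 and called (adjusted p = 0.00773). mt-Nd3 stood at 1166, 1632 and 1010 TPM against 444, 726 and 2987 TPM. Overexpression library 3 was thus above, and the other two were below, all control libraries. The spread in that group was 6.73-fold. Its ratio of means was 1.09 while its log2 difference was -0.33 (SE 0.586, limma adjusted p = 0.628), and 1 library decided its direction. Without overexpression library 3 the difference was -1.13 (limma adjusted p = 0.006), and without overexpression library 1 it was 0.24 (adjusted p = 0.689).

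mt-Cytb encodes cytochrome b, the subunit of complex III that holds both quinone sites. It stood at 77594, 86457 and 88688 TPM in control and at 72780, 69618 and 69450 TPM in overexpression libraries. The groups did not overlap. The log2 difference was -0.25 and missed the threshold (SE 0.115, limma adjusted p = 0.0783). It was called without control library 1 (adjusted p = 0.0399).

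Complex IV, cytochrome c oxidase, is built around mt-Co1, which holds the site of oxygen reduction. mt-Co1 was the most abundant row of the whole table in both groups, at 154450, 141101 and 157590 TPM in control and 114981, 104257 and 120332 TPM in overexpression libraries. Every overexpression library was below every control library. It fell by 0.42 on the log2 scale (SE 0.126, limma adjusted p = 0.0168), and the call ended without overexpression library 2 (adjusted p = 0.135). mt-Co3 stood at 7450, 11253 and 7697 TPM against 5105, 4779 and 6029 TPM. It fell by 0.71 on the log2 scale (SE 0.168, limma adjusted p = 0.00542), and it was the 1 member called in all 14 settings tried. mt-Co2, which takes electrons from cytochrome c, stood at 6676, 11193 and 11760 TPM against 5215, 5933 and 9652 TPM. The groups overlapped through control library 1 and overexpression library 3. Its difference of -0.52 was not called (SE 0.27, limma adjusted p = 0.118), and leaving out either of these libraries gave -0.78 with adjusted p of 0.0168 and 0.0216.

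Complex V, the ATP synthase, takes mt-Atp6, a subunit of its proton channel, and the small mt-Atp8. mt-Atp6 stood at 6185, 7671 and 4997 TPM in control and at 3199, 2771 and 5235 TPM in overexpression libraries, where library 3 was above the lowest control. The log2 difference was -0.78 (SE 0.239, limma adjusted p = 0.0178), and the call ended without control library 2 or overexpression library 1 or 2 (adjusted p = 0.0528 to 0.0805). mt-Atp8 had the largest difference of the 13. It stood at 4394, 1040 and 1971 TPM against 1168, 461 and 604 TPM, with control library 1 at 4.23 times control library 2. The log2 difference was -1.60 (SE 0.499, limma adjusted p = 0.0199), and the call ended without overexpression library 2 or 3 (adjusted p = 0.0893 and 0.0575). Without control library 1, its highest, the difference was -1.06 (limma adjusted p = 0.0372). Within a library, the TPM ratio of mt-Atp8 to mt-Atp6, which share a transcript and the 43 bases printed above, ran from 0.115 to 0.71.

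**Figure D4:**
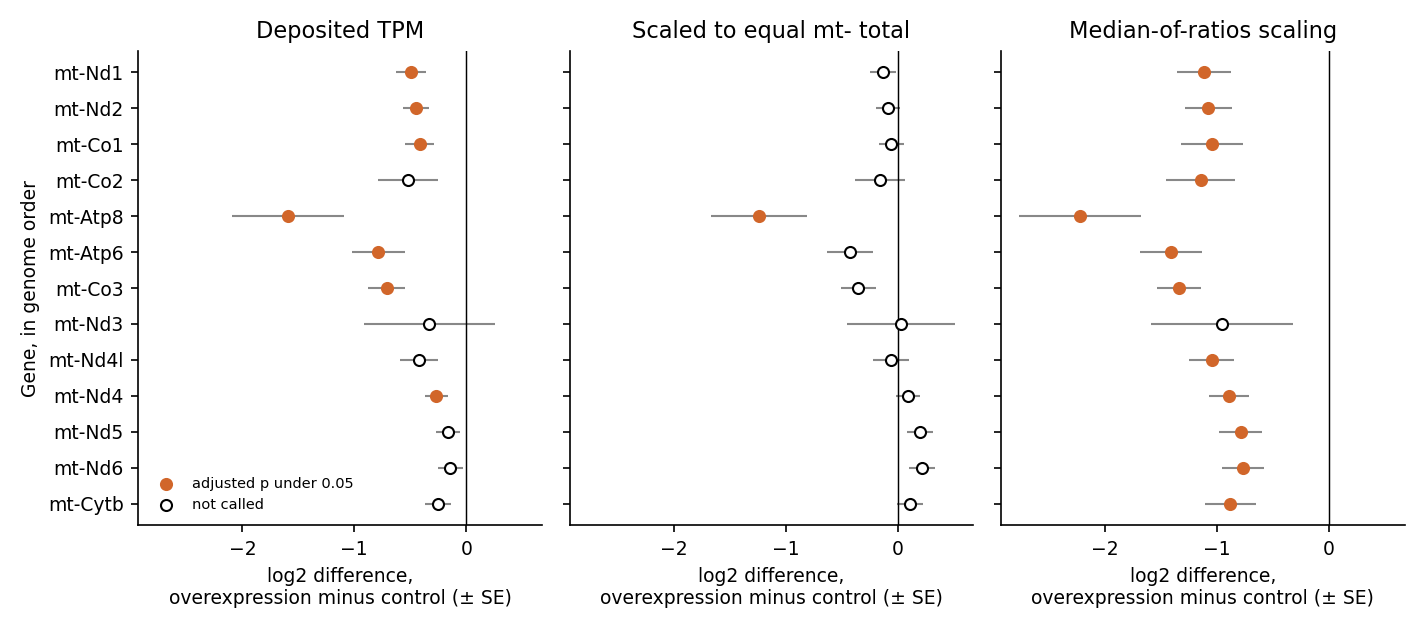
Limma log2 differences (overexpression minus control, bars are SE) of the 13 genes in genome order, in deposited TPM, after scaling every library to the same mt- total, and after median-of-ratios scaling. Filled points passed adjusted p under 0.05, and the 3 panels hold 7, 1 and 12 of them, all negative.

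Order of level by group mean was kept among the most abundant members. In both groups mt-Co1 was followed by mt-Cytb, mt-Nd1, mt-Nd2, mt-Nd5, mt-Nd6 and mt-Nd4 (TPM, which are per length). Neighbours in this order lay apart in their ranges over libraries, except mt-Nd5 and mt-Nd6 in control and mt-Nd2 and mt-Nd5 in overexpression libraries. In overexpression library 2 the order was broken, with mt-Nd2 (33577 TPM) below mt-Nd5 (36494 TPM) and mt-Nd6 (34234 TPM). The 7 genes of this order were also the 7 highest rows of the whole table by mean in both groups. Below them the ranges of mt-Co2, mt-Co3, mt-Atp6 and mt-Nd4l overlapped neighbour by neighbour. mt-Nd3 was lowest in control (1269 TPM ± 324, SD, n = 3) and mt-Atp8 in overexpression libraries (744 TPM ± 374). From highest to lowest mean the levels spanned 119-fold in control and 152-fold in overexpression libraries.

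Composition of the mt- pool was compared after each library had been scaled to the same mt- total. In that fit 1 of 13 members was called lower (mt-Atp8) and 0 higher, with 4.83% of all genes called lower and 74.4% called higher. At an unadjusted p under 0.05 there were 2. mt-Atp8 took 0.911%, 0.213% and 0.379% of mt- TPM in control and 0.304%, 0.126% and 0.147% in overexpression libraries, which overlap (log2 difference -1.23, SE 0.43, limma adjusted p = 0.0193). Its call ended without overexpression library 2 or 3 (adjusted p = 0.123 and 0.0791). Without control library 1 the difference was -0.68 (limma adjusted p = 0.0403), and with limma's array weights, which give less weight to libraries that deviate more, it was -0.62 and not called (adjusted p = 0.22). In place of mt-Atp8, mt-Atp6 and mt-Nd3 were called lower without overexpression library 3. Without control library 3 there were 3 (mt-Atp8, mt-Atp6 and mt-Co3), and without control library 1 there were 2 (mt-Atp8 and mt-Co3).

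Shares of the abundant members differed by less. The groups did not overlap in 5 of 13 members, lower for mt-Nd2 and mt-Co3 and higher for mt-Nd4, mt-Nd5 and mt-Nd6 (5.53% of all genes lower and 75.5% higher on that scale). mt-Nd6 took 6.82%, 7.89% and 7.64% of mt- TPM in control and 8.61%, 9.34% and 8.06% in overexpression libraries. mt-Nd5 took 7.73%, 8.58% and 8.45% against 9.46%, 9.96% and 8.995%. Their differences of 0.22 and 0.20 were not called (SE 0.118 and 0.113, limma adjusted p = 0.105 and 0.122). mt-Nd2 stood at 10.1%, 10.1% and 10.2% against 9.94%, 9.16% and 9.47% (log2 difference -0.09, limma adjusted p = 0.463). mt-Nd1 and mt-Co1 had differences of -0.13 and -0.06, and their shares overlapped between groups.

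Along the genome, the plus-strand genes had these TPM differences. mt-Nd1, mt-Nd2 and mt-Co1, the first protein genes on the plus strand, had log2 differences of -0.49, -0.45 and -0.42. The less abundant mt-Co2, mt-Atp8, mt-Atp6, mt-Co3, mt-Nd3 and mt-Nd4l, which come next, had -0.52, -1.60, -0.78, -0.71, -0.33 and -0.42. mt-Nd4, mt-Nd5 and mt-Cytb, the last ones on that strand, had -0.27, -0.16 and -0.25. The differences thus did not shrink steadily along the strand. Summed, the first 3 took 57.1%, 51.6% and 54.4% of mt- TPM in control and 51.8%, 49.9% and 52.4% in overexpression libraries, which overlap. Of 9 TPM ratios computed between members within libraries, the groups lay apart in 4 (mt-Nd2 to mt-Nd5, mt-Nd2 to mt-Cytb, mt-Nd4 to mt-Nd5 and mt-Nd5 to mt-Cytb). The groups overlapped in the ratios of mt-Nd1 and mt-Co1 to mt-Cytb, mt-Nd6 to mt-Nd5, mt-Nd2 to mt-Nd1 and mt-Atp8 to mt-Atp6. mt-Nd2 stood at 1.31, 1.17 and 1.21 times mt-Nd5 in control and at 1.05, 0.92 and 1.05 times in overexpression libraries. The ratio of mt-Nd6 to mt-Nd5, which overlap on opposite strands, was between 0.883 and 0.938 in all 6 libraries. These ratios were chosen after their values were seen, and no test was made of the order.

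Nuclear partner subunits were lower as well. Of those listed and tested, 7 of 7 core subunits of complex I, 9 of 9 subunits of complex III, 11 of 11 of complex IV and 13 of 14 of complex V were called lower in TPM, and 0 higher. So were 4 of 4 subunits of complex II, which has none from mitochondrial DNA. Over all genes 9.09% were called lower. With TPM recomputed over the 12391 genes outside mt-, where 13.9% of genes were called lower and 41.8% higher, these lists had 7, 9, 11, 14 and 4 called lower. Median log2 differences of the nuclear subunits were -0.60, -0.60, -0.53 and -0.64 in complexes I, III, IV and V. For the mt- subunits of the same complexes they were -0.33, -0.25, -0.52 and -1.19, over 7, 1, 3 and 2 genes. In complex V the 2 genes were mt-Atp6 (-0.78) and mt-Atp8 (-1.60). For complexes I and III all nuclear values (-1.0 to -0.5 and -0.8 to -0.4) reached further below 0 than mt-Cytb and the median mt-Nd gene. The difference between genomes was not tested.

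Named by smallest p in the fit, complex I was led by Ndufs7, a subunit with an iron-sulphur cluster, which fell from 331 ± 17.2 to 165 ± 5.95 TPM (SD, n = 3 each). Ndufs8, Ndufs3 and Ndufs1 had ratios of means of 0.564, 0.622 and 0.663. In complex II, Sdhb, Sdha, Sdhc and Sdhd had ratios from 0.627 to 0.703. In complex III, Uqcrc1 and Cyc1, the cytochrome c1 subunit, had ratios of 0.574 and 0.605, and Uqcr11 and Uqcr10 0.624 and 0.658. In complex IV, Cox7a1 and Cox8b fell most among the 4 named, with ratios of 0.261 and 0.425, while Cox4i1 and Cox7b had 0.581 and 0.627. In complex V, Atp5a1 of the catalytic head had a ratio of 0.575, and Atp5g1, Atp5g3 and Atp5c1 had 0.535, 0.577 and 0.578. These 20 genes had limma adjusted p between 8.47e-06 (Cox7a1) and 0.000899 (Sdhd).

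**Figure D5:**
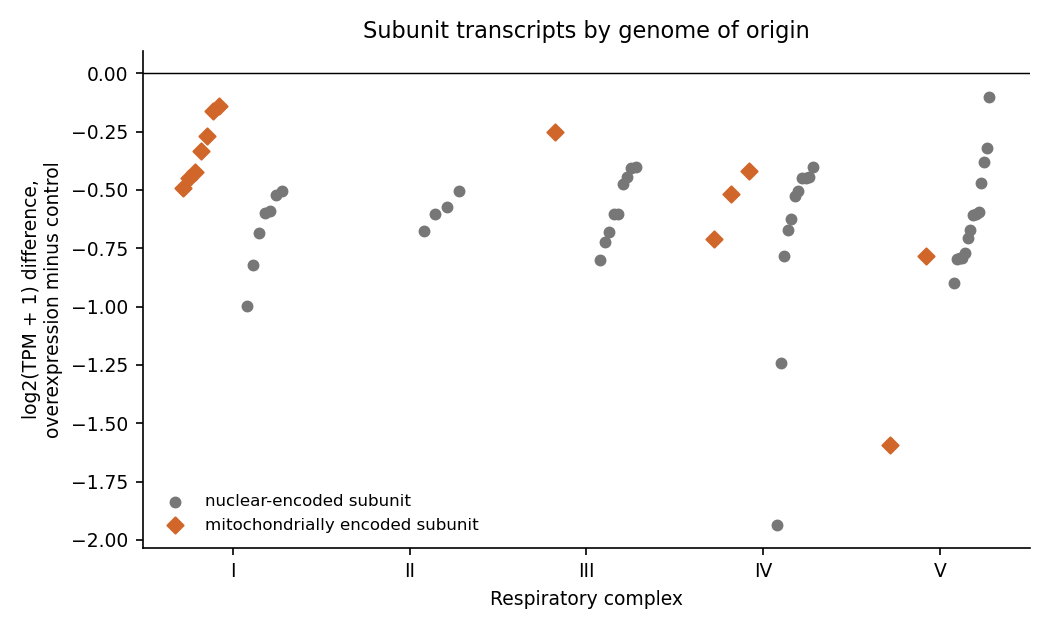
Log2(TPM + 1) differences (overexpression minus control) of subunit transcripts by respiratory complex, with diamonds for mitochondrially encoded and grey points for nuclear-encoded subunits. Every point lies below 0, and the mt- medians are -0.33, -0.25, -0.52 and -1.19 in complexes I, III, IV and V (7, 1, 3 and 2 genes).

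Genes that transcribe, process and translate mitochondrial RNA were called in both directions. Their counts stand beside 9.09% of all genes called lower and 59.0% higher in TPM (median 0.55), and 24.0% lower and 22.2% higher after median-of-ratios scaling (median 0.01). Of 16 tested genes of transcription and the nucleoid, 2 were called lower and 4 higher in TPM, with a median log2 difference of 0.17, so the share called higher was below the 59.0% of all genes. After median-of-ratios scaling 8 were lower and 1 higher. Mterf2, of the mitochondrial terminator-like family, fell from 14.9 ± 1.69 to 4.23 ± 0.291 TPM (log2 difference -1.60, SE 0.138, limma adjusted p = 4.55e-05). Tfb2m, which opens mitochondrial promoters with the polymerase, fell from 43.7 ± 2.67 to 31.2 ± 4.41 TPM. Rnaseh1, which removes RNA from RNA-DNA hybrids, rose from 3.79 ± 0.227 to 8.01 ± 1.00 TPM. Polg, the mitochondrial DNA polymerase, was higher in TPM (ratio 1.41, log2 difference 0.46) but not after median-of-ratios scaling (-0.12, limma adjusted p = 0.377).

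Of 18 tested genes of RNA processing, polyadenylation and turnover, 6 were lower and 4 higher in TPM (median 0.02), beside 9.09% and 59.0% of all genes. After rescaling 10 were lower and 2 higher, beside 24.0% and 22.2%. Rexo2, an exonuclease that degrades very short RNA, rose from 29.9 ± 1.34 to 66.1 ± 7.59 TPM, and Pde12, which removes poly(A) from mitochondrial mRNA, from 2.88 ± 0.320 to 7.74 ± 0.908 TPM. Fastk, the founding gene of a family of mitochondrial RNA-binding proteins, fell from 69.5 ± 0.491 to 39.7 ± 1.87 TPM. Hsd17b10, a subunit of the RNase P that cuts tRNAs out of the precursor, fell from 175.5 ± 5.40 to 110.1 ± 6.35 TPM (SD, n = 3 each). These 4 kept their calls in the same direction after rescaling (limma adjusted p = 4.2e-05 for Fastk to 0.00534 for Pde12).

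Of 18 tested translation and membrane insertion factors, 6 were lower and 1 higher in TPM (median 0.13), beside 9.09% and 59.0% of all genes. After rescaling 14 were lower and 0 higher, beside 24.0% and 22.2%. The gene called higher, Uqcc2, a complex III assembly factor named here after its values were seen, had a log2 difference of 0.28 in TPM (limma adjusted p = 0.0161) and of -0.34 after rescaling, where it was called lower (adjusted p = 0.0114). Taco1, which activates translation of mt-Co1 mRNA, fell from 45.5 ± 2.03 to 28.9 ± 3.39 TPM. Cox14, which stabilises newly made CO1 protein, fell from 66.6 ± 2.18 to 39.8 ± 3.41 TPM, and Uqcc1, needed for cytochrome b synthesis, from 85.6 ± 6.80 to 50.03 ± 12.65 TPM. Oxa1l, the inner membrane insertase, fell from 49.8 ± 2.54 to 37.8 ± 1.85 TPM (SD, n = 3 each). The TPM calls of Taco1, Cox14, Uqcc1 and Oxa1l had limma adjusted p between 0.00031 and 0.00628.

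Of 10 nuclear regulators of mitochondrial gene expression, 4 were lower and 5 higher in TPM (median 0.20), and the share called higher was near the 59.0% of all genes, with 9.09% lower. After rescaling 5 were lower and 3 higher, beside 24.0% and 22.2% of all genes. Ppargc1a, a coactivator that drives mitochondrial biogenesis, stood at 103.9, 335 and 416 TPM in control and at 21.6, 10.3 and 21.6 TPM in overexpression libraries. Its control libraries differed by 4-fold among themselves, yet the groups lay apart (log2 difference -3.77, SE 0.489, limma adjusted p = 0.000263). Its relative Pprc1 rose from 5.07 ± 0.391 to 16.0 ± 2.87 TPM. Gabpa and Gabpb1, the subunits of nuclear respiratory factor 2, rose from 20.04 ± 0.67 to 37.6 ± 1.23 and from 4.44 ± 0.607 to 10.8 ± 1.19 TPM (SD, n = 3 each). All 3 rises were also called after rescaling (limma adjusted p = 0.0011 to 0.0337).

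Markers of cell types moved with the groups too, beside 9.09% of all genes called lower and 59.0% higher in TPM, and 24.0% and 22.2% after median-of-ratios scaling. Cardiomyocyte markers, 6 of 10 called lower and 1 higher in TPM, summed to between 46836 and 51915 TPM in control and between 38154 and 43265 TPM in overexpression libraries, with none at 0. The ventricular marker Myl2 was the most abundant row outside mt- in control (14174 TPM). The atrial markers Sln, Myl7 and Myl4 summed to between 2.33 and 4.68 TPM in control and between 14.1 and 153 TPM in overexpression libraries. Of these 3, 2 were called higher in TPM, and 1 (Myl4) after rescaling. Sln and Myl7 overlapped between groups. Fibroblast markers, 5 of 6 higher, summed to between 348 and 452 TPM against 927 to 1343 TPM. Macrophage markers, 5 of 5 higher, summed to between 230 and 311 TPM against 455 to 861 TPM. After rescaling, 9 of 10 cardiomyocyte markers were called lower and 0 higher, fibroblast markers had 3 higher and 1 lower, and macrophage markers 4 higher and 0 lower. Endothelial markers were called in 0 of 4 in TPM and mural markers higher in 1 of 4, and after rescaling 2 of 4 in each list were called lower and 0 higher. Blood markers were called in 0 of 3 and overlapped, at 690 to 1028 TPM against 655 to 1610 TPM. Of 3 adipocyte markers 0 reached the expression filter. Of 3 genes listed for lymphocytes 1 did, Ptprc, and was higher. Cd3e and Cd79a were too low to be tested, so the call rests on Ptprc alone. Ptprc is not specific to lymphocytes among white blood cells, so the list gives no call for lymphocytes. The part of these cell types in the mt- values was not tested.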

How the data were processed

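The authors deposited 1 table of TPM per gene symbol for 6 libraries (3 control, 3 RBM20 overexpression), named as TPM per the file headers. Per the submitters' processing notes, featureCounts 2.0.3 and edgeR 3.40.2 are among the tools and mm8 is a build, with no role given. The aligner, the annotation, the strand setting and the treatment of reads with several places: not given in the sources used here. TPM keep no library total, so only mt- reads were recovered, from whole multiples of the value of 1 read. The 12404 genes averaging 1 TPM or more were tested as log2(TPM + 1) by limma 3.58.1 (R 4.3.3), two-sided and with a trended prior. Benjamini-Hochberg adjustment ran over all of them, with a threshold of 0.05. Fold changes on that scale understate those of low genes. The same fit was run after scaling to equal mt- totals and after median-of-ratios scaling. Nuclear copies were searched in GENCODE M21 transcripts with blastn 2.17.0 (at least 80 bases). No genome sequence was used. The fit was tried on simulated data in which every gene was given the same relative spread. In overexpression libraries the members ranged from 0.8% (mt-Nd5) to 100.6% (mt-Nd3) of the mean (SD). The simulation thus does not test the calls of members with a large spread. Members, 9 gene lists and 9 marker lists were chosen with earlier results of these data known. From each gene list the 4 tested members with the smallest p were named. Trmt10c and Atp5pb were not analysed here. Figures were made with matplotlib 3.10.9 in Python 3.11.15.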

Additional observations from a re-analysis of the deposited data

How the results depend on the processing

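Other pseudocounts, filters, scalings and limma settings, and omission of each library in turn, were tried. The count of mt- genes called lower in TPM (7) became 12 with median-of-ratios scaling and 1 with no filter, and ranged from 1 to 9 when 1 library was left out. In share of mt- TPM the count called lower (1) became 0 with no filter, 2 with array weights (mt-Atp6 and mt-Co3, with mt-Atp8 at -0.62 and no longer called, limma adjusted p = 0.22) and 2 with the total taken over mt- genes with no copied window (added after seeing the data), and ranged from 0 to 3 when 1 library was left out. The count called higher (0) became 2 with a pseudocount of 10 (mt-Nd5 and mt-Nd6). Over all 9 nuclear lists 14 genes were called higher, which became 6 with median-of-ratios scaling and 8 with TPM outside mt- rows, and 62 were called lower, which became 82 and 70. Without overexpression replicate 1, 13 were called higher and 62 lower. Among the 13 members and the nuclear genes named by smallest p, signs turned for 4. In TPM mt-Nd3 ranged from -1.13 to 0.24 when 1 library was left out (0.24 without overexpression replicate 1). In share of mt- TPM mt-Nd3 was -0.66 with array weights and -0.02 with the total over genes with no copied window, and ranged from -0.73 (without overexpression replicate 3, limma adjusted p = 0.0261) to 0.60 when 1 library was left out, with -0.15 without control replicate 3. In share, mt-Co2 ranged from -0.40 to 0.02 and mt-Nd4l from -0.19 to 0.11, with 0.02 and 0.11 without overexpression replicate 1 and 0.04 for mt-Nd4l without control replicate 2. Polg was -0.12 after median-of-ratios scaling. Uqcc2, which was not named by smallest p, also turned, from 0.28 in TPM to -0.34 after median-of-ratios scaling. The cause was not tested. The mt- share of all TPM ranged from 48.55% to 50.40% in control and from 37.56% to 39.76% in overexpression libraries when 1 library was left out. Without overexpression replicate 1 the overexpression mean was 38.85%. Restricting the sum to protein genes changed nothing, since all 13 rows are protein genes. Adding rows in nuclear copies was not possible, because none of the copies found is a row of the table. No paired analysis was possible because the labels give the groups no shared replicate numbers. Counting error was at most 2.45% per member and library.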
